A study of Homo sapiens with 18 samples.

Results

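The 10 genes described here encode cell adhesion molecules of the immunoglobulin superfamily: CADM1, CADM3, NCAM1, MCAM, ALCAM, ICAM1, EMB, NEGR1, SDK2 and CEACAM1. They were taken by gene name from a count table of 58870 genes, in which 9 of the 10 names were found. The gene identifier of MCAM, ENSG00000076706.17, stood in that table under the clone name AP002956.1, and MCAM was therefore matched by its identifier. The names were chosen by their place in the family with earlier results of these same libraries known, and which measured values entered the choice was not recorded. Every value of the 6 conditions was therefore counted as used, and the values of the 10 genes are given as a description, with no p-value. Where they are counted against the thresholds used for all genes, the count is part of that description and supports nothing. Tests are reported for 65 other adhesion genes of the superfamily and 23 partner genes. These lists were drawn up by what the proteins do, but also with earlier results of these libraries known.

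RNA-seq libraries came from 3 established human melanoma cell lines, WM164, SKMEL28 and A375, each overexpressing either MAFG or, as the control, GFP. Each of the 6 conditions had 3 libraries, 18 in all, and all cells were cultured in RPMI with fetal bovine serum. Per the methods of the study, both proteins were delivered with lentiviral vectors under the EF1α promoter, with blasticidin selection, and MAFG carried a Myc-DDK tag, so that control and MAFG cells alike had gone through viral transduction and selection. Each line is a single long-established culture, and whether the libraries of a condition came from separate cultures is not given in the labels, so that the spread and p-values below may be technical. In such bulk samples, fewer cells that express a gene and less RNA per cell cannot be told apart.

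Adhesion molecules of the immunoglobulin superfamily carry 1 or more immunoglobulin domains outside the cell, and most of them bind copies of themselves or related proteins on the next cell. CADM1 and CADM3 are nectin-like molecules, NCAM1 is the neural cell adhesion molecule, and NEGR1 and SDK2 are mostly studied in neurons. MCAM, ALCAM, NCAM1, ICAM1 and CEACAM1 have long been described on melanoma cells, where MCAM is also known as MUC18 and ALCAM as CD166. MAFG is a small MAF protein, a basic leucine zipper factor that has no activation domain of its own and binds DNA as a dimer.

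The number of counts per library ranged from 20122172 to 39025042, with a median of 31061375. MAFG itself stood at 25.8 CPM in WM164 control cells and at 53.1 CPM in WM164 MAFG cells (log2 fold change 1.04, edgeR adjusted p = 6.37e-08). It stood at 24.1 and 37.4 CPM in SKMEL28 cells (0.64, edgeR adjusted p = 1.28e-04) and at 27.0 and 47.4 CPM in A375 cells (0.80, edgeR adjusted p = 0.0655), and in each line the 3 MAFG libraries lay above the 3 GFP libraries. CPM stands for counts put on a common scale by TMM factors of the 18 libraries together, and is used unless TPM is named. On the deposited TPM scale, which accounts for transcript length, MAFG was at 2.89 and 24.5 TPM in WM164 GFP and MAFG cells. It was at 3.96 and 17.0 TPM in SKMEL28 cells and at 4.22 and 25.2 TPM in A375 cells (means, n = 3). Why the scales differ was not tested. The 4 leukocyte, 2 endothelial and 3 epithelial marker genes each summed to at most 1.42 CPM in any library. The 7 melanoma markers, MITF, PMEL, TYR, MLANA, SOX10, S100B and AXL, summed to 3350 to 3530 CPM in WM164 GFP and 2260 to 2330 CPM in WM164 MAFG libraries, to 4100 to 4360 and 3540 to 3710 CPM in SKMEL28 GFP and MAFG libraries, and to 652 to 705 and 666 to 854 CPM in A375 GFP and MAFG libraries. The list holds genes that moved in opposite directions. AXL, a marker of dedifferentiated melanoma, rose from 3.29 to 28.9 CPM in WM164 (log2 fold change 3.13, edgeR adjusted p = 1.35e-11) and from 0.589 to 23.1 CPM in SKMEL28 cells (5.25, edgeR adjusted p = 5.28e-12), and at 633 and 591 CPM it made up most of the A375 sums. The melanocyte marker MLANA fell from 332 to 62.8 CPM in WM164 cells (-2.41, edgeR adjusted p = 1.40e-15) and was at 510 and 524 CPM in SKMEL28 cells (0.038, edgeR adjusted p = 0.711). In SKMEL28 cells PMEL (-0.66, edgeR adjusted p = 2.93e-06), TYR (-0.23, 0.00355) and MITF (-0.20, 0.00967) were lower with MAFG, all inside the fold limit. S100B was higher there (0.58, edgeR adjusted p = 5.16e-06), also inside the limit, and SOX10 was level (0.029, 0.74). Both TYR and MLANA had 0 counts in all A375 libraries, and SOX10 in A375 cells was 8.85 CPM in GFP and 114 CPM in MAFG cells (log2 fold change 3.68, edgeR adjusted p = 2.12e-05). The part of these markers in the results below was not tested.

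The 10 genes lie on 6 chromosomes (GRCh38, GENCODE release 44). A run of 6.36 Mb on chromosome 11 holds 3 of them, NCAM1 at chr11:112961275-113278436 on the plus strand, CADM1 at chr11:115169218-115504957 on the minus strand and MCAM at chr11:119308529-119321521 on the minus strand. On chromosome 1, NEGR1 lies at chr1:71395943-72282539 (minus strand) and CADM3 at chr1:159171609-159203313 (plus strand). On chromosome 19, ICAM1 lies at chr19:10271093-10286615 (plus strand) and CEACAM1 at chr19:42507304-42561234 (minus strand). The others are ALCAM at chr3:105366909-105576900 (plus strand), EMB at chr5:50396192-50443248 (minus strand) and SDK2 at chr17:73334384-73644445 (minus strand). The libraries are labelled as non-stranded, the methods describe a strand-specific kit, and the use of strand in counting is not stated, so that reads from overlapping exons on opposite strands cannot be told apart. Such overlaps covered 36.6% of the exonic bases of CADM3, 25.4% of those of ICAM1 and 3.3% to 7.9% of those of MCAM, NCAM1, NEGR1 and CEACAM1, a few of them shared on the same strand, and none of those of CADM1, ALCAM, EMB and SDK2.

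RefSeq promoter sequences (GRCh38.p14, 250 bases before and 50 after the RefSeq start) were at hand for 5 of the 10 genes. This start lies within 27 bases of the 5′ end of the GENCODE gene for CADM3, ALCAM and ICAM1, but 4391 bases inside it for MCAM and 32753 bases inside it for CEACAM1. Those of CADM3, CEACAM1 and ICAM1 are shown because in WM164 cells CADM3 went from near 0 to a clear level, CEACAM1 was 2.19-fold higher and ICAM1 stayed level. The sequences read 5′ to 3′ on the strand of the gene, positions count from 1 at the 5′ end, and capitals mark matches on either strand to the MAF half-site TGCTGA or the E-boxes CACGTG and CATGTG. The AP-1 site TGANTCA, which overlaps MAF sites in its core, was also searched.
CADM3, chr1:159171365-159171664, plus strand: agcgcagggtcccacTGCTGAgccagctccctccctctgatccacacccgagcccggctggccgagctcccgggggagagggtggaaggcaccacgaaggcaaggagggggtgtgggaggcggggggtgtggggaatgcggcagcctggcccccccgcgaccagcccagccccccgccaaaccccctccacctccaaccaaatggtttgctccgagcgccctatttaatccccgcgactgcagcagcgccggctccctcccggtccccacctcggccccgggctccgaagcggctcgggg
CEACAM1, chr19:42528432-42528731, minus strand: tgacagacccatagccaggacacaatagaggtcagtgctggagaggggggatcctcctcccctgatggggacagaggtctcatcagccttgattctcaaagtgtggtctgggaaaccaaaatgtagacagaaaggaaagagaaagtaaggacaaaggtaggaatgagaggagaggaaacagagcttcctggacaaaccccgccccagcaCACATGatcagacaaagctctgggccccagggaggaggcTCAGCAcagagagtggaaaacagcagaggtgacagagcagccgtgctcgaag
ICAM1, chr19:10270870-10271169, plus strand: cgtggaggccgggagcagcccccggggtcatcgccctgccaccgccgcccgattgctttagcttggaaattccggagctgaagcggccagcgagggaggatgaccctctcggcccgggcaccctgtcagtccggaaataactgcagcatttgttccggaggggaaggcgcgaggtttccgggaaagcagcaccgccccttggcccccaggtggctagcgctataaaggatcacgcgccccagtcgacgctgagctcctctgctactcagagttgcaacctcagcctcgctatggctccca
The CADM3 window held TGCTGA at bases 16 to 21. The CEACAM1 window held CATGTG at bases 210 to 215 and TGCTGA at bases 249 to 254, both on the opposite strand and written as their reverse complements. The windows of ICAM1, MCAM (chr11:119317081-119317380, minus strand) and ALCAM (chr3:105366659-105366958, plus strand) had none of these letters, which says nothing about whether a factor binds there. Among 35116 promoters of the same length, 17.3% held TGCTGA, 11.1% CATGTG, 7.26% CACGTG and 7.71% TGANTCA. In WM164 cells MCAM and ALCAM, with no match, were also higher with MAFG (log2 fold change 0.45 and 0.69, inside the fold limit). A link between these letters and the response was not tested.

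MAFG and GFP cells of the same line were compared to learn how the adhesion genes stood after MAFG overexpression. In WM164 cells, 6 of the 9 genes with enough counts to enter the fit passed an edgeR adjusted p of 0.05 or less together with an absolute log2 fold change above 1. CADM1, CADM3, EMB, SDK2 and CEACAM1 were higher and NCAM1 was lower with MAFG. In SKMEL28 cells the same thresholds took 2 of 8 genes, NEGR1 higher and EMB lower, and in A375 cells 0 of 10. Over all genes tested, the same thresholds took 6.94% (1105 of 15919) for WM164, 4.74% (736 of 15523) for SKMEL28 and 0.665% (105 of 15779) for A375 cells. Since the names were chosen with these values known, nothing is read from the difference between the shares. The fitted genes of the 10 had median log2 fold changes of 1.13 (WM164), 0.18 (SKMEL28) and -0.10 (A375), beside -0.0015, -0.0080 and -0.00037 over all genes. A gap between all 3 MAFG and all 3 control libraries was present for 8 of 9 of the genes in WM164, for 6 of 8 in SKMEL28 and for 2 of 10 in A375 cells. Such a gap was present for 43.4%, 43.0% and 12.3% of all genes tested in these lines.

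**Figure D1:**
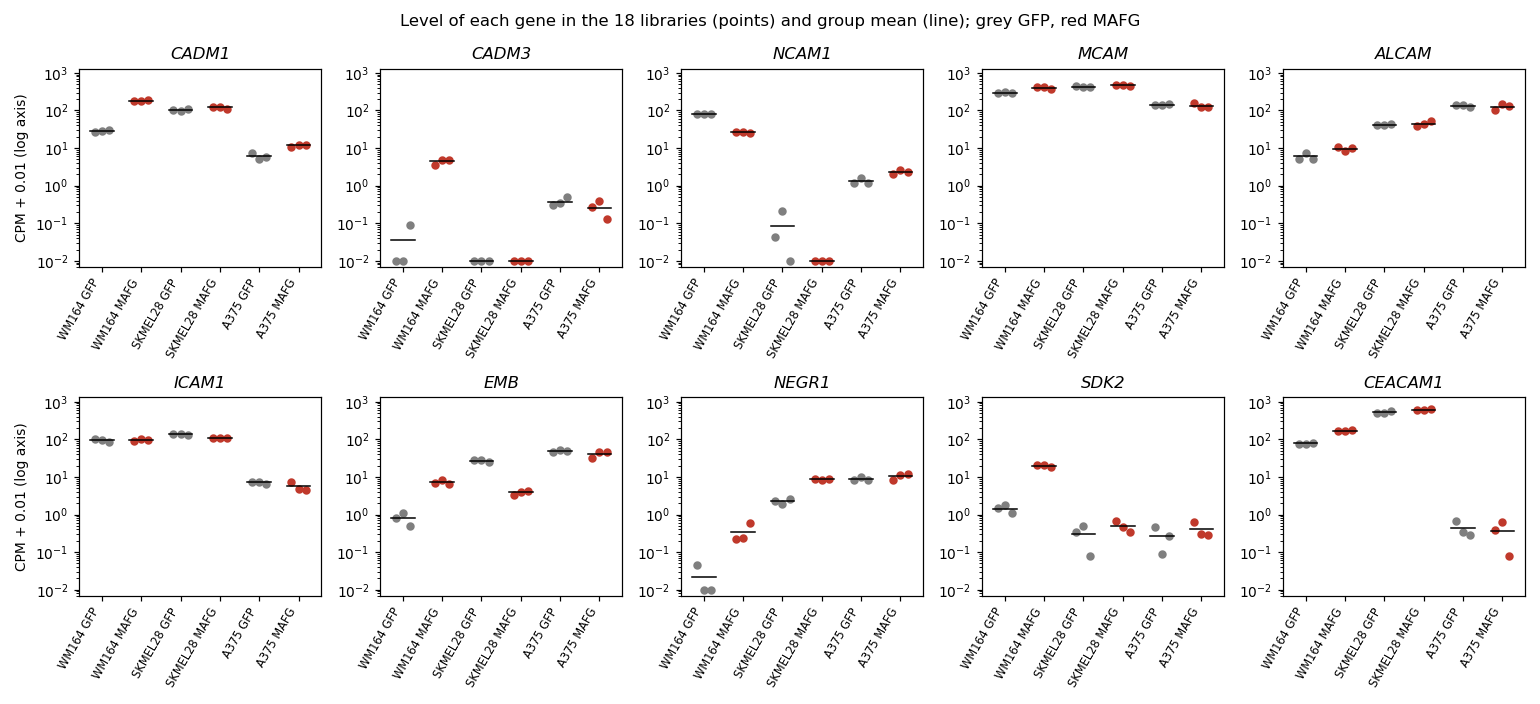
Level of the 10 adhesion genes in each of the 18 libraries, as CPM plus 0.01 on a log axis, with a panel for each gene. Points are libraries, grey for GFP and red for MAFG, and lines are means of 3 libraries; a point at the bottom of the axis is a library with 0 counts. CADM1 and SDK2 are highest in WM164 MAFG cells, CEACAM1 spans from at most 0.678 CPM in A375 to at least 498.8 CPM in SKMEL28 libraries, and MCAM stays between 120.7 and 464.8 CPM throughout.

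CADM1, a nectin-like molecule that binds itself and CADM3 across cell contacts, was highest in WM164 MAFG cells. In WM164 cells it was at 26.4, 28.7 and 29.7 CPM in the GFP libraries and at 178, 178 and 190 CPM in the MAFG libraries. The groups did not overlap, and the level with MAFG was 6.44-fold that of GFP (log2 fold change 2.69, SE 0.064). In SKMEL28 cells CADM1 was at 104, 97.0 and 107 CPM with GFP and at 125, 123 and 112 CPM with MAFG. These groups were close but did not overlap (log2 fold change 0.22, SE 0.063). In A375 cells it was at 7.25, 5.08 and 5.94 CPM with GFP and at 10.97, 12.2 and 12.2 CPM with MAFG (log2 fold change 0.95, SE 0.17), just inside the fold limit. Without the first A375 MAFG library the value was 1.02 and passed both thresholds. Over the alternative fits it lay between 0.395 (limma on log2(TPM + 1)) and 1.09 (without the first A375 GFP library). At 1.09 it did not pass both thresholds. All 6 conditions had separate ranges for CADM1, in the order WM164 MAFG, SKMEL28 MAFG, SKMEL28 GFP, WM164 GFP, A375 MAFG and A375 GFP, a span of 29.9-fold. With MAFG, WM164 cells stood above SKMEL28 cells in CADM1, whereas the control cells stood the other way round (GFP level, WM164 minus SKMEL28, log2 -1.86, SE 0.095).

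CADM3, the brain-enriched member of the same nectin-like group, had 0, 0 and 2 counts in the WM164 GFP libraries and 102, 132 and 157 counts in the WM164 MAFG libraries. The WM164 MAFG libraries were at 3.57, 4.88 and 4.85 CPM. Against a floor of 3 counts in each GFP library, the level with MAFG was at least 40.9-fold higher. The fitted log2 fold change of 7.29 is no bound, and it moved between 6.72 and 10 when single libraries were left out. In A375 cells CADM3 had 11, 12 and 17 counts with GFP and 10, 14 and 5 counts with MAFG, ranges that overlapped, and in SKMEL28 cells all 6 libraries had 0 counts. A count of 0 only limits the level to about 3 counts a library. The antisense gene CADM3-AS1, which shares 1408 exonic bases with CADM3, had 0 counts in every condition. AIM2, which lies across the CADM3 gene on the opposite strand without sharing exonic bases, was at 0.0701 CPM in WM164 GFP and 2.38 CPM in WM164 MAFG cells, and its part in the CADM3 counts was not tested.

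NCAM1, which binds itself between cells and carries polysialic acid, was the 1 gene of the 10 that passed the thresholds as lower in WM164 cells. It was at 79.1, 80.5 and 82.1 CPM with GFP and at 27.5, 27.0 and 24.5 CPM with MAFG. The groups were far apart, with a GFP level 3.06-fold the MAFG level (log2 fold change -1.61, SE 0.069). In A375 cells NCAM1 was at 1.17, 1.58 and 1.14 CPM with GFP and at 1.97, 2.68 and 2.26 CPM with MAFG, again without overlap and in the other direction (0.82, SE 0.32). In SKMEL28 cells NCAM1 had 1, 4 and 0 counts with GFP and 0 counts in each MAFG library, and no fold is given. Both WM164 conditions stood above all A375 libraries, and these above all SKMEL28 libraries. The antisense gene NCAM1-AS1 had 0 counts in every condition.

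EMB, embigin, the close relative of basigin that accompanies a monocarboxylate transporter to the cell surface, was far from level in WM164 and SKMEL28 cells and in opposite directions. In WM164 cells it was at 0.785, 1.10 and 0.474 CPM with GFP and at 6.96, 8.35 and 6.55 CPM with MAFG (log2 fold change 3.18, SE 0.25, 9.09-fold higher). In SKMEL28 cells it was at 28.4, 28.4 and 24.3 CPM with GFP and at 3.34, 4.09 and 4.20 CPM with MAFG (log2 fold change -2.80, SE 0.12). The GFP level in SKMEL28 cells was 6.97-fold the MAFG level. No library of either line overlapped with the other group of its line. In A375 cells EMB was at 46.2, 51.7 and 48.2 CPM with GFP and at 32.5, 45.5 and 46.5 CPM with MAFG, which overlapped (-0.23, SE 0.15). On the log2(TPM + 1) scale the WM164 value was 0.97 and short of the fold limit, where EMB was at 0.113 TPM with GFP and 1.19 TPM with MAFG.

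SDK2, sidekick 2, a large homophilic adhesion molecule best known from the retina, was at 1.46, 1.76 and 1.07 CPM in WM164 GFP libraries and at 20.6, 21.1 and 18.3 CPM in WM164 MAFG libraries. The groups did not overlap, and the level with MAFG was 13.8-fold that of GFP (log2 fold change 3.78, SE 0.16). In the other lines SDK2 stayed between 0.0690 and 0.667 CPM in all 12 libraries, with values of 0.77 (SE 0.67) in SKMEL28 and 0.61 (SE 0.79) in A375 cells. In both lines the GFP and MAFG ranges overlapped.

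NEGR1, a GPI-anchored molecule of the IgLON family, was nearly absent from WM164 control cells and clearly present in the other lines. In SKMEL28 cells it was at 2.27, 1.92 and 2.59 CPM with GFP and at 8.68, 8.29 and 9.05 CPM with MAFG, without overlap (log2 fold change 1.93, SE 0.18, 3.81-fold higher). SKMEL28 MAFG cells were then at the level of A375 GFP cells, which were at 8.13, 9.78 and 8.40 CPM, while A375 MAFG cells were at 8.04, 10.9 and 12.3 CPM. The 2 A375 ranges overlapped each other (0.25, SE 0.19). In WM164 cells NEGR1 had 1, 0 and 0 counts with GFP and 6, 6 and 19 counts with MAFG, too few to enter the fit. Against the floor of 3 counts in each GFP library the WM164 level with MAFG was at least 3.13-fold higher, and most of the MAFG counts came from a single library. On the log2(TPM + 1) scale the SKMEL28 value was 0.70, short of the fold limit.

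CEACAM1, an adhesion molecule with an inhibitory tail that binds itself on neighbouring and immune cells, was at 77.3, 76.1 and 79.8 CPM in WM164 GFP libraries and at 164, 167 and 180 CPM in WM164 MAFG libraries. The groups did not overlap, and the level with MAFG was 2.19-fold that of GFP (log2 fold change 1.13, SE 0.057). SKMEL28 libraries were the highest, at 505, 499 and 572 CPM with GFP and 594, 614 and 635 CPM with MAFG (0.23, SE 0.063). A375 libraries were at 0.678, 0.326 and 0.279 CPM with GFP and 0.379, 0.636 and 0.0698 CPM with MAFG, which overlapped (-0.26, SE 0.83). Between control cells, CEACAM1 stood 1205-fold higher in SKMEL28 than in A375 cells (log2 10.23, SE 0.23). Among near relatives that could share reads with it, CEACAM5 had 0 counts in all libraries and CEACAM6 at most 1 count. LIPE-AS1, which lies across CEACAM1 on the opposite strand and shares 185 exonic bases, was at 0.394 and 0.792 CPM in A375 GFP and MAFG cells. CEACAM1 was at 0.428 and 0.362 CPM there. In SKMEL28 cells LIPE-AS1 was at 2.825 and 2.311 CPM, and its part in the CEACAM1 counts was not tested.

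MCAM, ALCAM and ICAM1, 3 adhesion molecules of blood vessel, immune and melanoma cells, differed more between the control cells of most lines than between MAFG and GFP cells of a line. MCAM, which binds laminin and galectins, was at 284, 311 and 288 CPM in WM164 GFP and at 409, 412 and 383 CPM in WM164 MAFG libraries, a separation of 1.36-fold (log2 fold change 0.45, SE 0.055). In SKMEL28 cells MCAM ranged from 411 to 440 CPM with GFP and from 460 to 465 CPM with MAFG (0.13, SE 0.054), and in A375 cells from 141 to 146 CPM and from 121 to 161 CPM (-0.095, SE 0.11). Its neighbour CBL, which shares 509 exonic bases with MCAM on the opposite strand, was at 60.1 CPM in WM164 GFP and 72.4 CPM in WM164 MAFG cells, and its part in the MCAM value was not tested.

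ALCAM, which binds itself and the T cell protein CD6, was at 5.25, 7.56 and 5.14 CPM in WM164 GFP and at 10.4, 8.39 and 10.2 CPM in WM164 MAFG libraries. The groups stood apart by less than 1 CPM at their nearest libraries (0.69, SE 0.16). ALCAM ranged from 40.6 to 42.6 and from 39.5 to 51.0 CPM in SKMEL28 GFP and MAFG libraries (0.11, SE 0.086) and from 122 to 144 and from 101 to 144 CPM in A375 GFP and MAFG libraries (-0.11, SE 0.14), with overlap in both. The sign of these last values turned on the TPM scale or without the third MAFG library in SKMEL28 cells, and without the first MAFG library in A375 cells.

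ICAM1, the ligand of leukocyte β2 integrins, was at 99.1, 96.9 and 87.2 CPM in WM164 GFP and at 90.9, 101 and 96.3 CPM in WM164 MAFG libraries, which overlapped (0.022, SE 0.064). In SKMEL28 cells it was at 139, 140 and 132 CPM with GFP and at 110, 107 and 106 CPM with MAFG, lower without overlap but far inside the fold limit (-0.35, SE 0.055). In A375 cells it was at 7.48, 7.47 and 6.39 CPM with GFP and at 7.20, 4.90 and 4.61 CPM with MAFG, which overlapped (-0.36, SE 0.20). The integrin genes ITGAL, ITGAM and ITGB2, whose products bind ICAM1 on leukocytes, did not have enough counts to be tested in any line.

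**Figure D2:**
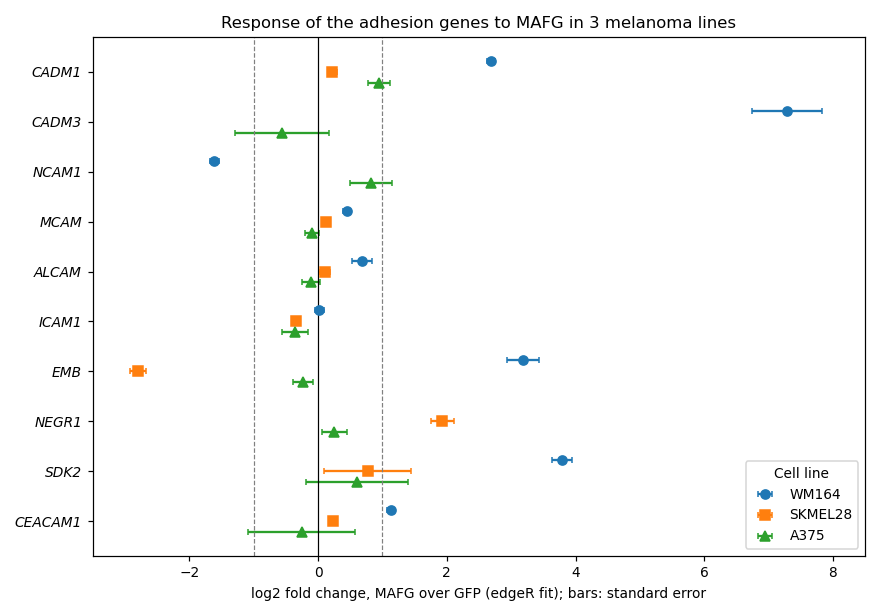
Log2 fold change of MAFG over GFP for each of the 10 genes in WM164 (circles), SKMEL28 (squares) and A375 cells (triangles), with bars for the standard error of the edgeR fit and dashed lines at the fold limit of 1. The EMB points stand at 3.18 in WM164 and -2.80 in SKMEL28 cells, and no point is drawn for NEGR1 in WM164 or for CADM3 and NCAM1 in SKMEL28 cells, which had too few counts.

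The response was next compared between the lines, as the log2 fold change in one line minus that in the other, in a single edgeR model of the 18 libraries. EMB differed by 5.98 (SE 0.27) between WM164 and SKMEL28 and by 3.41 (SE 0.27) between WM164 and A375 cells. CADM1 differed by 2.46 (SE 0.13) and 1.74 (SE 0.14) in the same comparisons, and SDK2 by 2.99 (SE 0.69) and 3.18 (SE 0.64). NCAM1 differed by -2.44 (SE 0.25) between WM164 and A375 cells, where its libraries moved in opposite directions. NEGR1 differed by 1.68 (SE 0.32) between SKMEL28 and A375 cells. The thresholds took 3 of the 10 genes for WM164 against SKMEL28, 7 for WM164 against A375 and 2 for SKMEL28 against A375 cells, where over all 18767 genes they took 5.10%, 4.39% and 4.20%. The comparisons share the libraries of a line, and the fitted values of CADM3 and NEGR1 rest on WM164 GFP libraries at the floor.

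Control cells of the 3 lines already differed in most of the 10 genes. The thresholds took 7 of 10 genes for WM164 against SKMEL28, 10 for WM164 against A375 and 8 for SKMEL28 against A375 GFP cells, where over all genes they took 28.7%, 46.7% and 43.8%. ICAM1 was 13.3-fold higher in WM164 than in A375 control cells (log2 3.73, SE 0.12), and MCAM 2.06-fold higher (1.04, SE 0.087). ALCAM and EMB had the reverse order, with ALCAM 22.4-fold (log2 -4.48, SE 0.16) and EMB 60.7-fold (-5.92, SE 0.21) lower in WM164 than in A375 control cells. MCAM had the narrowest range over the 6 conditions, at 3.44-fold between the highest and lowest mean, against 22.5-fold for ALCAM, 24.6-fold for ICAM1, 62.0-fold for EMB, 77.2-fold for SDK2 and 1700-fold for CEACAM1.

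Levels of different genes were compared on the deposited TPM scale, which accounts for transcript length. MCAM led in WM164 and A375 cells and CEACAM1 in SKMEL28 cells. In WM164 control cells MCAM was at 55.6 ± 8.08 TPM (SD, n = 3), CEACAM1 at 23.9 ± 2.33, ICAM1 at 21.4 ± 1.297, NCAM1 at 17.4 ± 1.95 and CADM1 at 9.10 ± 1.81 TPM, and the other 5 genes were below 1 TPM. In WM164 MAFG cells CADM1, at 63.2 ± 1.81 TPM (SD, n = 3), came next after MCAM at 86.4 ± 6.88 TPM, and NCAM1 was at 6.03 ± 0.641 TPM. The summed level of the 10 genes in WM164 cells was 129 ± 15.0 TPM with GFP and 245 ± 6.92 TPM with MAFG (SD, n = 3). CADM1 made up 7.03% ± 0.754 of that sum with GFP and 25.8% ± 1.18 with MAFG, and NCAM1 13.6% ± 0.204 and 2.46% ± 0.207 (SD, n = 3). The sums in SKMEL28 cells were 443 ± 9.57 TPM with GFP and 435 ± 14.2 TPM with MAFG, of which CEACAM1 made up 52.3% ± 2.76 and 55.3% ± 2.32 (SD, n = 3). In A375 cells the sums were 79.4 ± 11.4 and 68.4 ± 10.1 TPM, with MCAM at 47.1% ± 2.41 and ALCAM at 32.2% ± 2.39 of the sum in GFP cells (SD, n = 3). Because the 10 genes were picked with these values known, the sums are a description and no difference between them was tested. The median log2 fold change on log2(TPM + 1) covered tested genes with at least 1 TPM in at least 3 libraries of a line. It was positive for WM164 (0.137). It was negative for the other lines (A375 -0.103, SKMEL28 -0.142). The part of this shift in the sums was not tested.

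**Figure D3:**
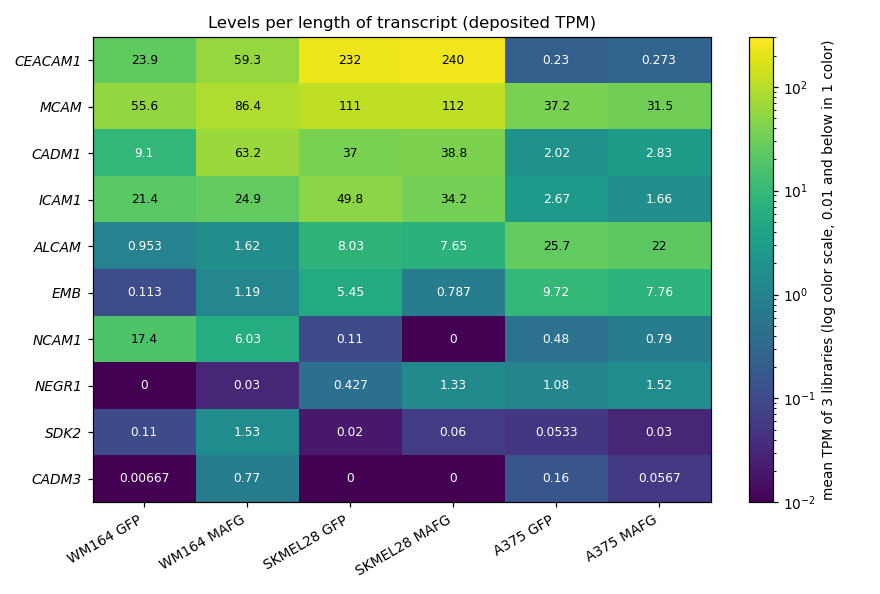
Mean deposited TPM of 3 libraries for the 10 genes (rows, by mean level) in the 6 conditions (columns), on a log color scale with each mean printed in its cell. CEACAM1 is at 232 and 240 TPM in SKMEL28 and at 0.230 and 0.273 TPM in A375 cells, while MCAM is at 31.5 TPM or more in all 6 conditions.

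For each of the 10 genes, the gene with the most similar pattern was sought among the other genes that passed the count filter, by the root mean square difference of the 6 condition means of log2 CPM after subtraction of the mean of each gene. The closest match was MDFIC for MCAM (0.0894, over 18766 genes), followed by SLC44A3 for ICAM1 (0.147), ZNF799 for ALCAM (0.185), ANKS1B for CADM1 (0.25) and TMEM273 for SDK2 (0.359). PLA1A for CEACAM1 (0.537), CENPV for NEGR1 (0.547), TMEM47 for CADM3 (0.562), MYO5B for EMB (0.583) and SEL1L3 for NCAM1 (0.678) were more distant. Since 6 means from 3 lines are few, such likeness is a description of these libraries.

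The other genes of the superfamily were examined next. Of 65 such genes, 9 had at most 3 counts in every library, and 33 entered the WM164 test, 29 the SKMEL28 test and 31 the A375 test. In WM164 cells 6 rose and 5 fell past both thresholds (33.3% of those tested, beside 6.94% of all genes), in SKMEL28 cells 2 rose and 2 fell (13.8%, beside 4.74%), and in A375 cells 0 did. For A375 cells edgeR gave 7 of 31 genes at an unadjusted p under 0.05 and DESeq2 called 0. The share of all genes at that unadjusted limit is not given, so nothing is read from the 7. The median log2 fold changes were 0.11, -0.18 and -0.081. With log2(TPM + 1) in limma the WM164 count was 3. That fit kept only genes with at least 1 TPM in at least 3 libraries of the line.

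Among the genes of the L1 family, which act in axon growth and cell contact in the nervous system, NRCAM rose from 4.99 ± 0.616 to 19.3 ± 1.27 CPM in WM164 cells (SD, n = 3; log2 fold change 1.95, edgeR adjusted p = 6.44e-10). CHL1 rose from 17.4 ± 1.53 to 45.5 ± 2.64 CPM (1.38, edgeR adjusted p = 7.30e-10) and NFASC, neurofascin, from 2.78 ± 0.795 to 9.33 ± 0.292 CPM (1.74, edgeR adjusted p = 7.43e-07). NFASC fell in SKMEL28 cells, from 1.04 ± 0.258 to 0.180 ± 0.105 CPM (-2.50, edgeR adjusted p = 0.00386), and the difference of the response between these lines was 4.24 (SE 0.55, edgeR adjusted p = 1.61e-05). NCAM2, the paralog of NCAM1, fell in SKMEL28 cells from 3.25 ± 0.526 to 0.384 ± 0.131 CPM (-3.07, edgeR adjusted p = 9.82e-06), and had too few counts for the test in WM164 cells. CHL1 was at 35.6 and 48.9 CPM in SKMEL28 GFP and MAFG cells (0.46, edgeR adjusted p = 1.74e-04, inside the fold limit). L1CAM, another L1 gene, named after its values were seen, was at 225 and 199 CPM in WM164 (-0.18, edgeR adjusted p = 0.0335) and at 89.8 and 124 CPM in SKMEL28 GFP and MAFG cells (0.47, edgeR adjusted p = 1.95e-04), both inside the fold limit.

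NTM, neurotrimin, an IgLON molecule like NEGR1, rose in both lines, by 1.88 in SKMEL28 (edgeR adjusted p = 1.78e-05) and by 2.21 in WM164 cells (edgeR adjusted p = 4.07e-04). In A375 cells NTM was at 4.21 ± 0.315 and 7.72 ± 0.714 CPM (0.87, edgeR adjusted p = 0.0593). CNTN3, a GPI-anchored contactin, had 0 counts in the WM164 GFP libraries and rose to 1.16 ± 0.402 CPM, at least 10.7-fold higher (edgeR adjusted p = 1.76e-05).

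Among genes of junctional adhesion and CTX molecules in WM164 cells, IGSF11, F11R and CXADR fell past both thresholds, and JAM3 and JAM2, the other two tested, did not. IGSF11, a homophilic molecule of the CTX group, fell from 64.7 ± 3.98 to 14.3 ± 0.499 CPM (log2 fold change -2.18, edgeR adjusted p = 4.39e-13). F11R, the tight junction protein JAM-A, fell from 9.62 ± 1.23 to 3.61 ± 0.0872 CPM (-1.41, edgeR adjusted p = 7.34e-07). CXADR, the coxsackievirus and adenovirus receptor, fell from 30.8 ± 1.25 to 15.3 ± 2.20 CPM (-1.01, edgeR adjusted p = 3.42e-07), a value that came inside the fold limit without the second GFP library (-0.99) or the third MAFG library (-0.92). JAM3 was at 24.4 and 40.3 CPM (0.73, edgeR adjusted p = 1.98e-06, inside the fold limit) and JAM2 at 0.152 and 0.500 CPM (1.68, edgeR adjusted p = 0.0927), and both are named after their values were seen. CNTN1 and CNTN4 made up the rest of the 5 that fell, and are named after their values were seen, at log2 fold changes of -1.04 and -2.91 (edgeR adjusted p = 8.49e-05 and 7.00e-04). BSG, basigin, the relative of EMB with the highest mean TPM of the 65 genes, was at 404 ± 19.4 and 386 ± 14.1 CPM in WM164 GFP and MAFG cells (-0.066, edgeR adjusted p = 0.398).

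**Figure D4:**
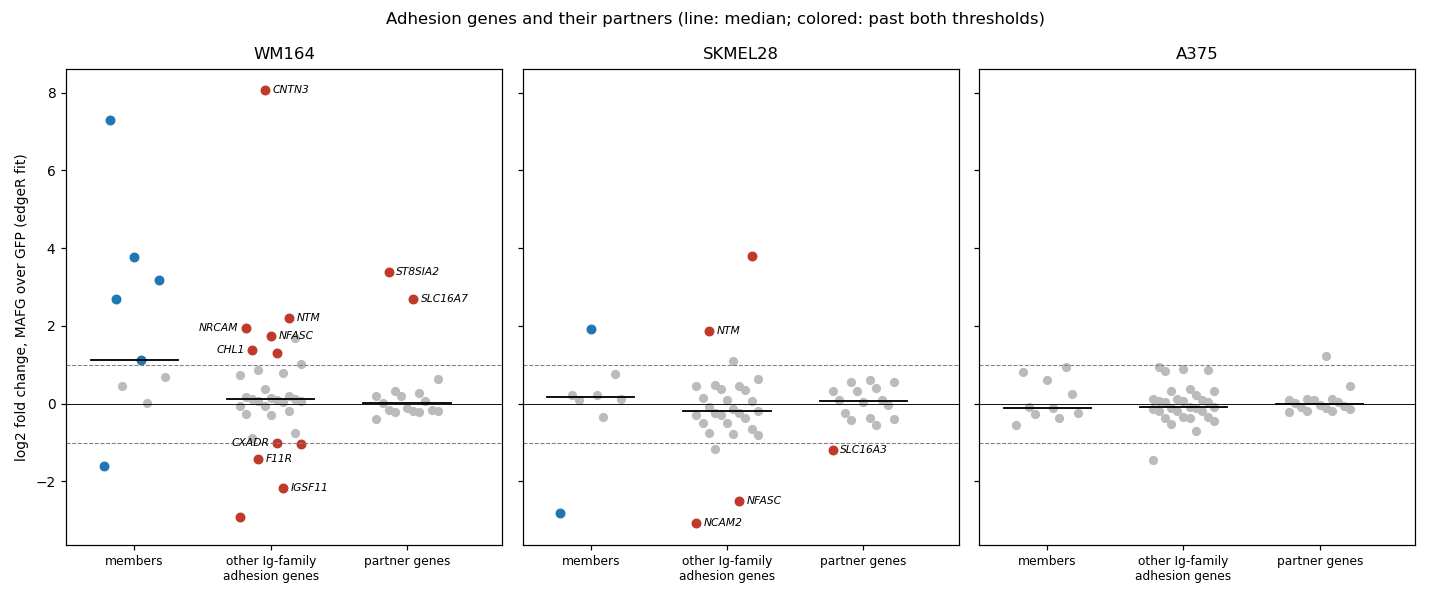
Log2 fold change of MAFG over GFP for the 10 genes, the other adhesion genes of the superfamily and the partner genes that were tested in WM164, SKMEL28 and A375 cells. Each point is a gene, colored points passed both thresholds (blue for the 10 genes, red for the others), black bars are medians and dashed lines the fold limit. Colored points lie on both sides of 0 in WM164 and SKMEL28 cells and there are 0 in A375 cells.

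Of 23 genes for binding partners, adaptors, transporters and sheddases of the 10 adhesion molecules, 17 were tested in WM164 and 16 in each of the other lines. In WM164 cells 2 rose past both thresholds (11.8%, beside 6.94% of all genes), in SKMEL28 cells 1 fell (6.25%, beside 4.74%) and in A375 cells 0 did, where edgeR gave 2 of 16 genes at an unadjusted p under 0.05 and DESeq2 called 0. Without the share of all genes at that unadjusted limit, nothing is read from the 2 of 16. The medians were 0.029, 0.064 and -0.0042. ST8SIA2, a polysialyltransferase that modifies NCAM1, rose in WM164 cells from 0.588 ± 0.138 to 6.24 ± 0.696 CPM (SD, n = 3; log2 fold change 3.40, edgeR adjusted p = 7.34e-09), in the line in which NCAM1 was lower with MAFG. SLC16A7, the monocarboxylate transporter MCT2 that embigin accompanies, rose in WM164 cells from 0.958 ± 0.0897 to 6.26 ± 0.253 CPM (2.702, edgeR adjusted p = 1.82e-08), where EMB was higher as well. In SKMEL28 cells, where EMB was lower, SLC16A7 was at 18.7 ± 1.85 CPM with GFP and 14.01 ± 2.66 CPM with MAFG (-0.41, edgeR adjusted p = 0.0266, inside the fold limit). The difference of the SLC16A7 response between WM164 and SKMEL28 cells was 3.12 (SE 0.27, edgeR adjusted p = 8.87e-08). SLC16A3, the transporter MCT4 that basigin accompanies, fell in SKMEL28 cells from 2.45 ± 0.923 to 1.07 ± 0.448 CPM (-1.20, edgeR adjusted p = 0.0285). That call was lost without the first or second GFP library (edgeR adjusted p = 0.197 and 0.0559) and without the first or second MAFG library (0.10, and a value just above 0.05). LGALS3, galectin 3, which had the highest mean TPM of the list, was at 345 ± 12.4 and 304 ± 2.98 CPM in WM164 GFP and MAFG cells (-0.19, edgeR adjusted p = 0.00968), inside the fold limit.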

How the data were processed

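RNA-seq libraries of 3 melanoma lines with added MAFG or GFP (3 per condition, 18 in all) were grouped by the labelled cell line and treatment. Per the methods, the authors trimmed, aligned (GRCh38) and counted the reads with featureCounts, and deposited raw counts per gene. The submitters' processing notes name cutadapt 1.8.1, STAR 2.7.7a, RSEM 1.3.0 and DESeq2, and the annotation release is not given in the sources used here. The authors also deposited TPM values, scaled to the same sum in each library and rounded to 2 decimals.

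MAFG was compared with GFP per line with R 4.3.3 and edgeR 4.0.16 (TMM, filterByExpr, quasi-likelihood F test, Benjamini-Hochberg adjustment over all tested genes), with calls where the adjusted p was at most 0.05 and the log2 fold change lay beyond 1 in either direction. Standard errors are the absolute log2 fold change over the square root of F. Differences between lines used contrasts of 6 group means over the 18 libraries. Library totals ranged from 20122172 to 39025042 counts. Pairs of libraries of a condition differed by more than counting error alone would give (mean chi-square per gene 5.9 to 96.7 over 18 pairs). Groups with at most 3 counts in each library were taken as at the floor, and their folds are bounds that cover counting error only. DESeq2 1.42.0 and limma 3.58.1 were alternatives, and the fits were tested on simulated data.

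Replicate numbers did not pair the libraries (correlations of same-numbered deviations -0.0326 to 0.012). The 10 genes, gene lists and tests were chosen with earlier results of these data known. From the lists, genes called in at least 1 line (up to 8 a list and line by smallest adjusted p) and the gene with the highest mean TPM are named, except that some results, included in the counts, are not reported here. Columns with no assigned sample: 0. Figures were drawn with matplotlib 3.10.9.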

Additional observations from a re-analysis of the deposited data

Results flagged for a closer look

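Among the 10 genes, EMB responded in opposite directions in every library of WM164 and SKMEL28 cells, with a difference between the responses of 5.98 (log2), and NCAM1 did so between WM164 and A375 cells, with a difference of -2.44. Both genes were chosen with these values known, so these differences are given as a description, with no p-value.

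The responses of several other adhesion and partner genes differed between the lines in the edgeR model of the 18 libraries, with p-values adjusted over 18767 genes. Between WM164 and SKMEL28 cells the difference (WM164 minus SKMEL28, log2) was 4.24 for NFASC (edgeR adjusted p = 1.61e-05), 3.62 for NCAM2 (7.66e-05), 2.04 for NRCAM (8.62e-06), -1.49 for F11R (1.71e-04) and -1.52 for IGSF11 (4.78e-05). Among the partner genes the difference was 3.96 for ST8SIA2 (edgeR adjusted p = 0.00101), 3.12 for SLC16A7 (8.87e-08) and 1.41 for SLC16A3 (0.00506).

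Between WM164 and A375 cells the difference (WM164 minus A375, log2) was 2.10 for NFASC (edgeR adjusted p = 0.00366), 1.34 for NTM (0.0243), 2.90 for SLC16A7 (1.43e-07) and -1.645 for F11R (1.39e-04). Between SKMEL28 and A375 cells (SKMEL28 minus A375) it was -3.40 for NCAM2 (edgeR adjusted p = 5.34e-06), -2.14 for NFASC (0.0190) and -1.19 for SLC16A3 (0.0494). In all, 8, 8 and 5 of the 42 other adhesion genes in this model passed both thresholds in these comparisons, beside 5.10%, 4.39% and 4.20% of all genes. Some of these values rest on low counts. NCAM2 had too few counts for the test within WM164 cells, and NFASC was at 0.180 CPM in SKMEL28 MAFG cells. The SLC16A3 call within SKMEL28 cells was lost without some single libraries, as given above.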

How the results depend on the processing

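The 10 genes were chosen with these values known, and nothing is read from their counts below. They numbered 6 in WM164 and 2 in SKMEL28 cells past the thresholds whichever library was left out. Beside them, 1051 to 1103 of all genes passed in WM164 and 678 to 726 in SKMEL28 cells. In A375 cells 0 to 1 of the 10 genes passed, beside 55 to 153 of all genes, and CADM1 passed without the first MAFG library. No listed gene changed sign while called. Without a limit on the fold change, 7 of the 9 fitted genes of the 10 were called higher and 1 lower in WM164 cells. Calls were 5 of 8 in SKMEL28 and 1 of 10 in A375 cells. Over all genes, calls were 5065 of 15919 in WM164 and 4640 of 15523 in SKMEL28 cells, and the A375 number is not given here. Without this limit, 17 and 16 other adhesion genes and 8 and 9 partner genes were called in WM164 and SKMEL28 cells. Differences of the response between WM164 and SKMEL28, WM164 and A375, and SKMEL28 and A375 cells then numbered 2573, 1728 and 1784, with 17 adhesion genes in the first and 11 in the last, and differences of control levels 10661, 13415 and 12869. On log2(TPM + 1) in limma, WM164 cells had 3 adhesion and 0 partner genes, SKMEL28 cells 226 genes in all, 2 adhesion genes, 0 partner genes and 1 of the 10 genes (EMB), and A375 cells 19 genes. On log2(TPM + 0.1) these were 6 and 0 in WM164, 2 and 0 in SKMEL28 and 15 in A375 cells. Both limma fits kept only genes with at least 1 TPM in at least 3 libraries of the line. Over the tested genes so kept, the median log2 fold change was 0.137 and 0.163 in WM164 cells. It was -0.142 and -0.165 in SKMEL28 and -0.103 and -0.119 in A375 cells. The share of calls that were higher went from 71.1% to 81.8% and 81.0% in WM164 cells. In SKMEL28 cells it went from 37.1% to 19.5% and 21.4%. The parts of the scale and of this filter were not told apart. CHL1 (0.91), CXADR (-0.65), F11R (-0.63) and NFASC (0.92) in WM164 cells came inside the fold limit on log2(TPM + 1). With at least 10 counts in every library, 2 adhesion genes remained past the thresholds in SKMEL28 cells. All genes called in A375 cells numbered 173 with DESeq2, 216 with no filter on low counts (and 1 partner gene), 311 in the model of 18 libraries, and 55 to 153 when single libraries were left out, with 0 to 1 adhesion and 0 to 1 partner genes. They were 63, 67 and 65 without GFP library 1, 2 or 3 and 55 without the second MAFG library. The partner gene call in SKMEL28 cells was 0 to 1 over left-out libraries. With the replicate number as a block (replicate block), A375 calls numbered 64 and the SKMEL28 partner gene call was lost (SLC16A3, edgeR adjusted p = 0.0518). The numbers did not pair the libraries (0 of 9 correlations above 0.1, 0 of 9 libraries best with their own number), and the block changed no other call of a named gene. The cause of these changes was not tested. Genes at a few counts per library, such as CADM3 and NEGR1 in WM164 cells and SDK2 and CEACAM1 in A375 cells, are limited by depth.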
